A study of Mus musculus with 6 samples.

Results

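The genes described here make and run the DNA replication fork: 47 listed genes for origin licensing, the helicase, the polymerases, clamp loading, strand binding and joining, and nucleotide supply, with *Uhrf1* added as a reader of newly copied DNA. They were chosen by gene symbol, and 45 of the 47 were named among the 22206 probe sets, each by 1 probe set. *Mcm7* and *Orc5* were not analysed here. RNA came from luminal mammary epithelial cells that were FACS-sorted by a *Sox9*-driven GFP reporter, and 3 arrays were run for the Sox9-GFP-high and 3 for the Sox9-GFP-low sort. Both sorts were taken at an age of about 3 months from female mice bred as Sox9-GFP;C3(1)/Tag, so every sample carried the BAC reporter Tg(Sox9-EGFP)EB209Gsat and the C3(1)/Tag transgene on an FVB/NJ background. The C3(1) promoter drives SV40 large T antigen, and by the study's description this antigen is made mainly in ER- luminal cells and disables RB. The question addressed is whether cells with more *Sox9* reporter differ from their neighbours of the same glands in the transcripts of this machinery. The glands came from 3 animals, the labels do not tie array numbers to animals, and p-values therefore measure the spread between these arrays.

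Replication starts where the origin recognition complex (ORC) sits on DNA and, with CDC6 and CDT1, loads the ring-shaped MCM helicase. Geminin (*Gmnn*) holds CDT1 back until the next cycle, and CDC45 with the GINS complex turns the loaded ring into a running helicase. DNA polymerase α with its primase begins each strand, polymerases ε and δ extend it, replication factor C (RFC) places the sliding clamp PCNA, and ribonucleotide reductase supplies the building blocks. Many of these genes are switched on together before S phase by E2F transcription factors, which RB holds in check. SV40 large T antigen binds RB. Both sorts carried its transgene, and the amount of antigen in each sort was not measured here.

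The arrays held values taken as log2, with medians from 5.15 to 5.21. The arrays correlated across probe sets at r = 0.992 to 0.994 within a sort and 0.979 to 0.988 between sorts, with 0 identical pairs. The sorted gene *Sox9* was 1.01 higher on the log2 scale in Sox9-GFP-high cells (limma, adjusted p = 0.0360), a call kept only by the fit without Sox9-GFP-high array 2 among those that left out 1 array (up to 0.128). The luminal label was borne out by *Krt8*, with log2 values of 16.91 to 17.33 on the 6 arrays, and by *Epcam*, with 14.86 to 15.22, while *Krt19* was lower by 1.65 (limma, adjusted p = 0.0013). Of 6 measured basal markers 0 passed the test, 2 were positive, and *Krt5* lay between 3.95 and 4.78. *Krt14*, the brightest of them on average, had 15.08, 14.48 and 14.85 in Sox9-GFP-high and 14.51, 14.19 and 14.04 in Sox9-GFP-low arrays, a difference of 0.55 that was positive at all 3 array numbers, overlapped between sorts and did not pass (limma, adjusted p = 0.159). The summed basal level on the linear scale, which *Krt14* dominates, was 23072 to 34877 in Sox9-GFP-high and 17119 to 23687 in Sox9-GFP-low arrays. *Krt5*, *Acta2*, *Myh11* and *Oxtr* differed by -0.13, -0.64, -0.07 and -0.27, and *Trp63* by 0.11. The 6 measured immune and 5 endothelial markers lay between 2.28 and 5.98, and 0 of them passed. Among 4 fibroblast markers *Dcn* was lower by 2.22 on the log2 scale in Sox9-GFP-high cells (limma, adjusted p = 0.00122), while *Pdgfrb*, *Col1a1* and *Col3a1* differed by 0.04, -0.01 and 0.14. *Pdgfrb*, *Col1a1* and *Col3a1* lay between 3.41 and 5.72 on the 6 arrays, beside array medians of 5.15 to 5.21. The summed level of the 4, which *Dcn* dominates, was 577 to 1076 in Sox9-GFP-high and 2820 to 3976 in Sox9-GFP-low arrays. For 4 adipocyte markers the sums were 1176 to 4475 and 3865 to 9493, carried by *Fabp4*, which differed by -1.42 without passing (limma, adjusted p = 0.104) and was higher in the Sox9-GFP-high array at number 3. *Adipoq*, *Plin1* and *Lep* differed by -0.05, 0.04 and -0.12 and lay between 2.54 and 4.53 on the 6 arrays. Whether *Dcn* and *Fabp4* came from cells other than luminal ones was not tested, nor was any part of such cells in the results below.

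In Sox9-GFP-high cells 14 of the 45 replication genes were higher, 0 were lower and 31 were not called (limma, Benjamini-Hochberg over all probe sets, threshold 0.05). Over all probe sets 4.0% were called higher and 3.20% lower. *Rrm2*, the small subunit of ribonucleotide reductase that is made in S phase, was 2.32-fold higher. *Cdc45*, the helicase activator, was 2.16-fold higher, and *Fen1*, the nuclease that trims Okazaki fragments, was 2.04-fold higher. Of the 45 genes 40 had a positive difference (88.9%, against 51.5% of all probe sets), and the median difference was 0.61 on the log2 scale, against 0.01 over all probe sets. In 28 genes (62.2%) all Sox9-GFP-high arrays lay above all Sox9-GFP-low arrays, and in 0 genes the reverse held, while 14.1% and 11.4% of all probe sets were separated in these directions. An unadjusted p under 0.05 was reached by 27 members, all positive, and by 11.7% of all probe sets with a positive difference.

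The direction was shared by most members across arrays. Between arrays with the same label number, 34 genes were higher in the Sox9-GFP-high array at all 3 numbers (75.6%, against 24.1% of all probe sets). Lower at all 3 numbers were 4 genes (8.89%, against 20.7% of all probe sets). The median difference was 0.61, 0.52 and 0.64 at numbers 1, 2 and 3. With the number as a replicate block, 18 members were higher and 0 lower, against 6.32% and 4.99% of all probe sets. The count of 14 fell whichever array was left out. It was 7 without Sox9-GFP-high array 1, 9 without array 2 and 4 without array 3, and 7, 7 and 5 without Sox9-GFP-low arrays 1, 2 and 3. Over all probe sets the count fell as well, from 888 higher to 493, 672 and 496 without Sox9-GFP-high arrays 1, 2 and 3. Without Sox9-GFP-low arrays 1, 2 and 3 it was 663, 494 and 522. *Rrm2*, *Cdc45*, *Cdc6* and *Fen1* passed whichever single array was left out. By the methods' t-test 25 of 45 members were higher at an unadjusted threshold of 0.05, beside 2118 of all 22206 probe sets. After Benjamini-Hochberg adjustment 0 members and 1 probe set were higher. In bulk RNA a larger share of cells that express a gene and more of its RNA per cell cannot be told apart. *Mki67*, a marker of cycling cells, was higher by 1.06 (limma, adjusted p = 0.00697) and the mitotic topoisomerase *Top2a* by 1.68 (limma, adjusted p = 0.000994), and their part in the members' differences was not tested. The study reports that Sox9-GFP-high cells proliferated at a higher rate than the remaining luminal cells. The share of cycling cells in each sort was not measured here.

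**Figure D1:**
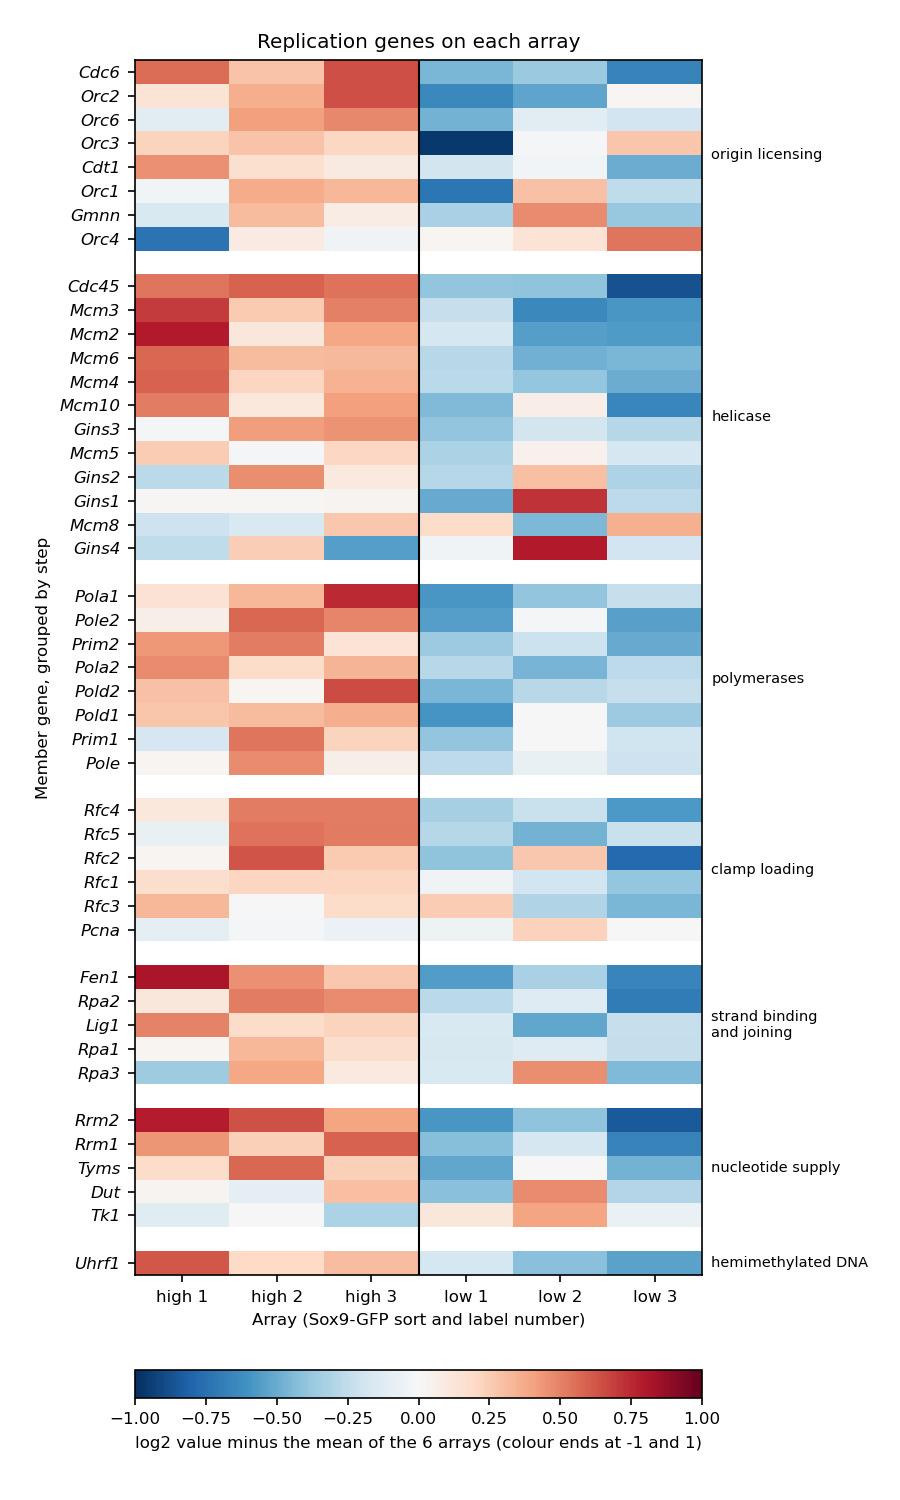
Each row is 1 of the 45 measured replication genes, grouped by step, and each column 1 array, with the colour giving the log2 value minus that gene's mean over the 6 arrays. Most rows are red on the 3 Sox9-GFP-high arrays and blue on the 3 Sox9-GFP-low arrays, while *Orc4*, *Gins4*, *Tk1*, *Pcna* and *Mcm8*, the 5 genes with a negative difference, do not follow this.

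The 300 bases around annotated starts (250 before and 50 after, RefSeq, GRCm38.p6) were read for 37 of the 45 members, in 45 windows. *Gins1*, *Gins2*, *Gins4*, *Gmnn*, *Mcm4*, *Pole*, *Prim2* and *Rfc2* have no window here. Both strands were searched for the E2F-type words TTTCCCGC, TTTGGCGC, TTTCGCGC and TTTGCCGC, the CCAAT box (CCAAT), the GC box (GGGCGG) and the CHR-type word TTTGAA, and overlapping matches of a motif were counted as 1 site. An E2F-type word stood in 15 of the 45 windows (33.3%), against 2.26% of all 32851 windows of the same length. The CCAAT box stood in 57.8% against 37.4%, the GC box in 71.1% against 35.7%, and the CHR-type word in 11.1% against 17.9%. Matches of different motifs overlapped at 1 place, a CCAAT box and a GC box of *Gins3*. By gene, an E2F-type word was present in 5 of 12 higher members and in 10 of 25 others, and a CCAAT box in 8 of 12 and 16 of 25. The GC box was present in 9 of 12 and 19 of 25, and the CHR-type word in 3 of 12 and 2 of 25. These counts were not compared by a test. A match is a string of letters and says nothing about binding in these cells.

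The 250 bases before the start are shown for 5 members to set the letters beside the measured differences, with E2F-type and CCAAT matches in capitals. *Mcm6*, *Mcm3* and *Rrm2* were higher, and *Gins3* and *Pcna* did not pass. *Mcm6* (chr1:128359706-128359955, minus strand) has E2F-type sites that begin at -110 and -47, counted in bases from the start. *Gins3* (chr8:95633309-95633558, plus strand) has a single E2F-type site, at -41. *Mcm3* (chr1:20820313-20820562, minus strand) has 3 CCAAT boxes here and its E2F-type words at 20 and 39, after the start. *Rrm2* (chr12:24708004-24708253, plus strand) and *Pcna* (chr2:132253181-132253430, minus strand) have 1 CCAAT box each and no E2F-type word.
Mcm6: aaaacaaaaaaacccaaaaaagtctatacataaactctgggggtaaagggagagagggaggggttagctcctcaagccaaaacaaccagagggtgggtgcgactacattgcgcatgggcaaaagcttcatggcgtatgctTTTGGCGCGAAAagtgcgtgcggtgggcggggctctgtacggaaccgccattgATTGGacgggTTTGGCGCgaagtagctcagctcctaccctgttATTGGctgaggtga
Mcm3: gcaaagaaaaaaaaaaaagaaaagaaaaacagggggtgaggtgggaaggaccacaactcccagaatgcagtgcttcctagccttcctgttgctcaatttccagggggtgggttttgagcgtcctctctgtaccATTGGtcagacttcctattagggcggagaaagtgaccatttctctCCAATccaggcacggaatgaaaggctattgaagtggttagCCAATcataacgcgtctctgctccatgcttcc
Rrm2: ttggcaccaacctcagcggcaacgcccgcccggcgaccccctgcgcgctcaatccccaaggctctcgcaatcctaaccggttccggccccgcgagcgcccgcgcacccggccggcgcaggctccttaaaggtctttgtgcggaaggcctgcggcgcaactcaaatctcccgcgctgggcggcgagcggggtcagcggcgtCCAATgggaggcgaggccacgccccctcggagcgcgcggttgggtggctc
Gins3: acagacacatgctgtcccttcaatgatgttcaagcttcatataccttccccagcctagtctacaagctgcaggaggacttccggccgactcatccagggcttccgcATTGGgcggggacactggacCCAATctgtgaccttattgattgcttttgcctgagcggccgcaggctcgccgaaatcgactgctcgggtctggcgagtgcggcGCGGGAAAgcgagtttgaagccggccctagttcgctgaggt
Pcna: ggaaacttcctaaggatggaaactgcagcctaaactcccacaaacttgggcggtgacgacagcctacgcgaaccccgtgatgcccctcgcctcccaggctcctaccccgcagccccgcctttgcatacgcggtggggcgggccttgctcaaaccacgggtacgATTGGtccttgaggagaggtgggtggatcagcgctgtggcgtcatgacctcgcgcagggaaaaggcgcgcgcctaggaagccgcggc

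**Figure D2:**
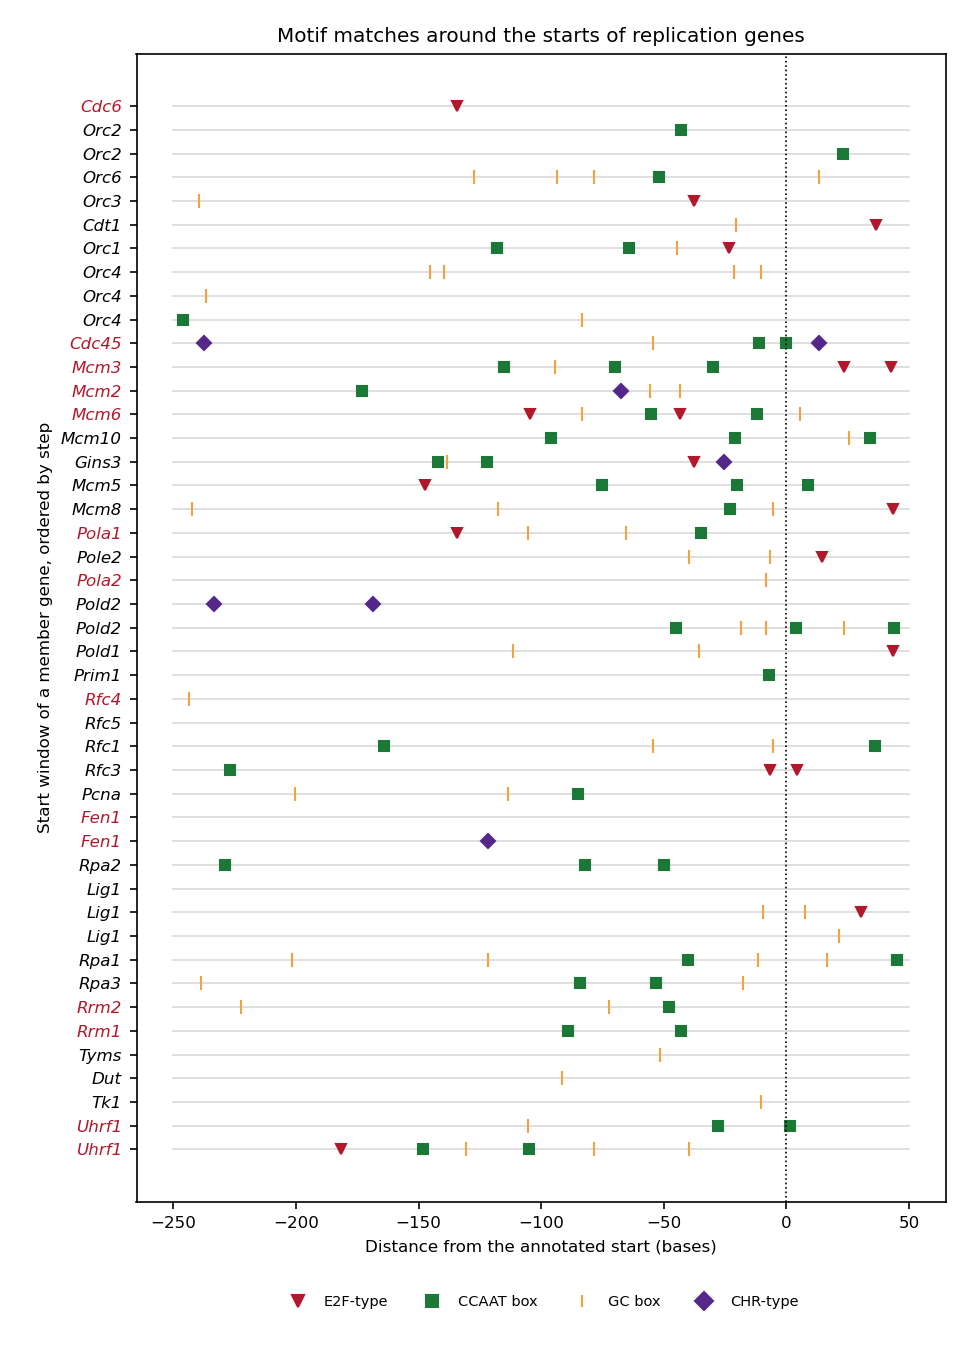
Each line is 1 of the 45 start windows, named by gene and ordered by step, with motif matches placed by their distance in bases from the annotated start (dotted line), and names in red are members called higher. E2F-type triangles appear in windows of red and of black names alike, 5 of 12 and 10 of 25 genes.

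Origin licensing had the smallest share of separated genes of any step, but each step holds few genes and their order was not tested. Of its 8 measured genes 1 was higher, 3 (37.5%) lay wholly above the other sort, and the median difference was 0.47. Over all probe sets 4.0% were called higher and 14.1% lay wholly above, and these shares stand beside the counts of each step below. The gene that rose was *Cdc6*, which loads the MCM ring together with ORC. *Cdc6* had log2 values of 10.88, 10.60 and 10.96 on Sox9-GFP-high arrays 1, 2 and 3, and 9.86, 9.95 and 9.64 on Sox9-GFP-low arrays 1, 2 and 3. Its lowest Sox9-GFP-high value was above its highest Sox9-GFP-low value, a difference of 1.00 (SE 0.18, 2.0-fold, limma adjusted p = 0.00968). *Cdt1*, the other loader, also lay apart but by 0.47 and without passing the test (limma adjusted p = 0.194).

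Geminin, the CDT1 inhibitor, had the smallest difference of the step. *Gmnn* values were 11.42, 11.89 and 11.65 in Sox9-GFP-high and 11.25, 12.05 and 11.20 in Sox9-GFP-low arrays. The sorts overlapped because Sox9-GFP-low array 2 was the highest of all 6, and the difference was 0.16 (95% interval -0.40 to 0.72, limma adjusted p = 0.806).

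Within ORC itself the differences ranged from -0.46 to 0.76. *Orc2*, a core subunit, had values of 10.73, 10.95 and 11.23 against 9.94, 10.06 and 10.61, and the sorts did not overlap. Its difference of 0.76 did not pass (limma adjusted p = 0.0728) but did so with the replicate block (0.0196). *Orc6*, which helps ORC hold the MCM ring, had 12.62, 13.15 and 13.22 against 12.26, 12.63 and 12.55, where the lowest Sox9-GFP-high array and the highest Sox9-GFP-low array met, and its difference of 0.52 did not pass (limma adjusted p = 0.189). *Orc1*, *Orc3* and *Orc4* overlapped between sorts with differences of 0.45, 0.47 and -0.46, and *Orc4* lay lower in the Sox9-GFP-high array at each number.

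The helicase, the step with the most measured genes, held the largest number of calls, with 5 of its 12 higher. Of the 12, 7 (58.3%) lay wholly above the other sort, and the median difference was 0.63. Of the 5 measured subunits of the MCM ring, *Mcm2*, *Mcm3*, *Mcm4* and *Mcm6* were higher. *Mcm3*, whose promoter letters are shown above, had values of 15.12, 14.68 and 14.92 in Sox9-GFP-high and 14.19, 13.77 and 13.83 in Sox9-GFP-low arrays, a difference of 0.98 (SE 0.19, 1.97-fold, limma adjusted p = 0.0149). *Mcm2* had 14.56, 13.88 and 14.16 against 13.59, 13.22 and 13.20, a difference of 0.86 (SE 0.22, limma adjusted p = 0.0400). In both genes array 1 was the highest of its sort.

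Of the 4 ring subunits that rose, *Mcm6* and *Mcm4* had the smallest SDs within both sorts. *Mcm6* values were 14.27, 14.01 and 14.02 against 13.42, 13.22 and 13.24, a difference of 0.81 (SE 0.17, limma adjusted p = 0.0199). *Mcm4* values were 12.46, 12.09 and 12.23 against 11.60, 11.49 and 11.38, a difference of 0.77 (SE 0.18, limma adjusted p = 0.0276). Neither gene overlapped between sorts. *Mcm5*, the remaining measured subunit, overlapped, with 14.84, 14.57 and 14.79 against 14.26, 14.63 and 14.41, and its difference of 0.30 did not pass (limma adjusted p = 0.406). *Mcm2*, *Mcm3* and *Mcm6* no longer passed without Sox9-GFP-high array 1 or 3 or Sox9-GFP-low array 2 or 3, with adjusted p up to 0.120, 0.0556 and 0.0669, and *Mcm4* passed only without Sox9-GFP-high array 2 (up to 0.0927).

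*Cdc45*, which rides with the MCM ring and GINS as the active helicase, had the most even Sox9-GFP-high values of the called members. They were 10.46, 10.52 and 10.47, against 9.54, 9.52 and 9.06 in Sox9-GFP-low arrays, means of 10.49 ± 0.03 and 9.37 ± 0.27 (SD, n = 3). Its difference was 1.11 (SE 0.19, limma adjusted p = 0.00677), and the sorts lay far apart compared with either spread. *Mcm10*, which helps to open the origin, had 10.58, 10.18 and 10.48 against 9.63, 10.14 and 9.42. Its sorts were separated by a narrow gap between high array 2 and low array 2, and its difference of 0.68 did not pass (limma adjusted p = 0.101), although it did without Sox9-GFP-low array 2 (0.0484).

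The GINS subunits, which work as a single complex, ranged from -0.37 to 0.58. *Gins3* had 8.58, 9.01 and 9.04 against 8.19, 8.40 and 8.30, with no overlap, and a difference of 0.58 (limma adjusted p = 0.101). *Gins1* had the smallest difference of the helicase genes, 0.03 (95% interval -0.61 to 0.66, limma adjusted p = 0.975), with 10.85, 10.85 and 10.87 against 10.34, 11.56 and 10.58. The Sox9-GFP-high arrays were level and the Sox9-GFP-low arrays stood on both sides of them. *Gins2* differed by 0.20 and *Gins4* by -0.37, both with overlap. *Mcm8*, a helicase of repair rather than of the ring, differed by -0.06 and overlapped.

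The polymerase genes had differences from 0.36 to 0.81. All 8 were positive, 7 (87.5%) lay wholly above the Sox9-GFP-low arrays, 3 passed the test, and the median difference was 0.65. The 3 were subunits of polymerase α and primase, the enzyme that begins each strand. *Pola1*, its catalytic subunit, had 13.56, 13.76 and 14.16 against 12.84, 13.03 and 13.19, a difference of 0.81 (SE 0.20, limma adjusted p = 0.0402). *Pola2*, its regulatory subunit, had 13.37, 13.09 and 13.24 against 12.63, 12.44 and 12.63, a difference of 0.67 (SE 0.17, limma adjusted p = 0.0429). *Prim2*, the large primase subunit, had 11.10, 11.18 and 10.80 against 10.30, 10.46 and 10.16, a difference of 0.72 (SE 0.18, limma adjusted p = 0.0401). None of the 3 overlapped between sorts, but *Pola2* and *Prim2* lost the call whichever array was left out (adjusted p up to 0.131 and 0.127), and *Pola1* kept it only without Sox9-GFP-high array 1 (up to 0.142). After quantile normalization *Pola1* and *Pola2* did not pass (limma adjusted p = 0.0555 and 0.0564). *Prim1*, the small primase subunit, was the step's only gene with overlap and differed by 0.40.

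The 4 members that belong to the extending polymerases were positive without passing. *Pole2*, the second subunit of polymerase ε, had 10.56, 11.08 and 10.99 against 9.95, 10.48 and 9.96, a difference of 0.75 that did not pass (limma adjusted p = 0.0722) and did so with the replicate block (0.0267). *Pole*, the catalytic subunit of polymerase ε, had the smallest difference of the step. Its values were 11.34, 11.79 and 11.38 against 11.06, 11.25 and 11.11, separated by a small gap, with a difference of 0.36 (95% interval -0.05 to 0.78, limma adjusted p = 0.311). For polymerase δ, which extends the lagging strand, *Pold1* had 11.50, 11.55 and 11.59 against 10.64, 11.22 and 10.87, a difference of 0.64 (limma adjusted p = 0.0778). *Pold2* had 10.11, 9.84 and 10.47 against 9.37, 9.55 and 9.59, also a difference of 0.64 (limma adjusted p = 0.0886). Both genes lay apart between sorts.

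**Figure D3:**
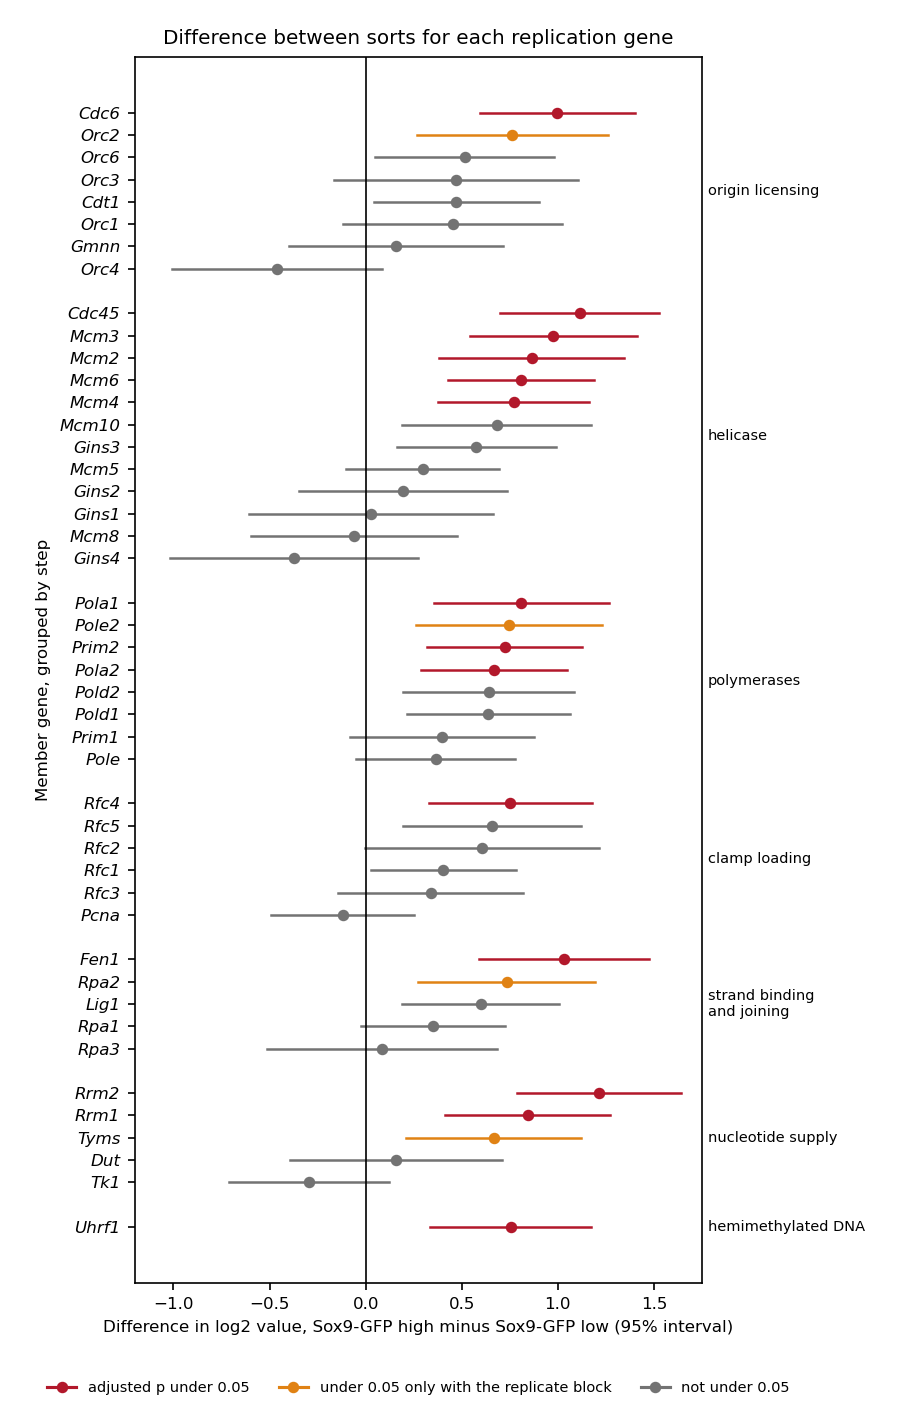
Points give the difference in log2 value between sorts (Sox9-GFP high minus Sox9-GFP low, 3 arrays each) for the 45 measured members by step, and lines its 95% interval from limma. The 14 red points are called higher, the 4 orange points pass only with the replicate block, and the 5 points left of 0 all have intervals that include 0.

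In clamp loading a loader subunit was called and the clamp was not. *Rfc4*, a subunit of the RFC loader, was the 1 of 6 genes that was higher, 3 (50%) lay wholly above the other sort, and the median difference was 0.51. *Rfc4* values were 10.99, 11.39 and 11.39 against 10.55, 10.65 and 10.31, a difference of 0.75 (SE 0.19, limma adjusted p = 0.0412), with no overlap. It passed when Sox9-GFP-high array 1 was left out and not when any other array was (adjusted p up to 0.142), and not after quantile normalization (0.0557). *Pcna*, the clamp, had 15.62, 15.70 and 15.66 against 15.67, 15.95 and 15.72. These values overlapped, and the difference was -0.12 (95% interval -0.49 to 0.25, limma adjusted p = 0.774), the smallest in size of the step.

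The other loader subunits fell between these. *Rfc5* had 10.10, 10.72 and 10.69 against 9.89, 9.70 and 9.95, apart by 0.66 (limma adjusted p = 0.0947). *Rfc2* had 10.13, 10.74 and 10.37 against 9.71, 10.38 and 9.33, where Sox9-GFP-low array 2 reached into the other sort, and differed by 0.61 (limma adjusted p = 0.244). *Rfc1*, the large subunit, differed by 0.40 without overlap and *Rfc3* by 0.34 with overlap, and neither passed.

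Among the genes that bind, trim and join strands, *Fen1* was higher and 4 of 5 (80.0%) lay wholly above the other sort, with a median difference of 0.60. *Fen1* values were 11.45, 11.09 and 10.90 against 10.07, 10.31 and 9.97, a difference of 1.03 (SE 0.20, limma adjusted p = 0.0126). *Lig1*, the ligase that seals Okazaki fragments, had 9.29, 8.98 and 9.01 against 8.64, 8.28 and 8.56, apart by 0.60 (limma adjusted p = 0.0833). RPA, the trimer that coats single strands, had subunits with differences from 0.08 to 0.73. *Rpa2* had 11.49, 11.89 and 11.85 against 11.10, 11.25 and 10.68, a difference of 0.73 that passed only with the replicate block (limma adjusted p = 0.0634 without and 0.0440 with it). *Rpa1* was apart by 0.35 and did not pass. *Rpa3*, the smallest subunit, had 12.68, 13.41 and 13.12 against 12.88, 13.50 and 12.59, fully overlapping, with a difference of 0.08 (95% interval -0.51 to 0.68, limma adjusted p = 0.912).

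Nucleotide supply held the member with the largest difference. *Rrm2* had log2 values of 10.96, 10.81 and 10.58 in Sox9-GFP-high and 9.60, 9.78 and 9.34 in Sox9-GFP-low arrays, means of 10.79 ± 0.20 and 9.57 ± 0.22 (SD, n = 3). The gap between the sorts was wider than the range of either, and the difference was 1.21 (SE 0.19, 95% interval 0.79 to 1.64, limma adjusted p = 0.00486). Of the members, only *Rrm2* was called in each of the 9 refits with an array or a number removed, with adjusted p up to 0.0475. *Rrm1*, the large catalytic subunit of the same reductase, had 13.15, 12.94 and 13.29 against 12.28, 12.54 and 12.04, a difference of 0.84 (SE 0.19, limma adjusted p = 0.0273). It did not overlap between sorts, and it no longer passed without array 1 or 3 of either sort (adjusted p up to 0.104).

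Genes around thymidylate had differences of both signs. *Tyms*, which makes thymidylate from deoxyuridylate, had 13.99, 14.38 and 14.04 against 13.29, 13.81 and 13.33, a difference of 0.67 without overlap that did not pass (limma adjusted p = 0.0843) and did so with the replicate block (0.0318). *Dut*, which clears dUTP and yields the substrate of *Tyms*, had the smallest difference of the step. Its values were 6.59, 6.47 and 6.86 against 6.14, 7.03 and 6.27, overlapping through Sox9-GFP-low array 2, with a difference of 0.16 (95% interval -0.39 to 0.71, limma adjusted p = 0.804). *Tk1*, the S-phase thymidine salvage kinase, differed by -0.29 and was lower at all 3 numbers, but its mean lay only 0.33 above the array medians.

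*Uhrf1*, which recognises hemimethylated DNA behind the fork and brings in the maintenance methyltransferase, was higher. Its values were 13.40, 12.98 and 13.09 against 12.60, 12.36 and 12.25, a difference of 0.75 (SE 0.19, limma adjusted p = 0.0398). The sorts did not overlap, and the call was lost whichever array was left out (adjusted p up to 0.125).

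The order of arrays within a sort was uneven over these genes, which was not tested, and the members are not independent counts. Sox9-GFP-low array 2 was the highest of its sort in 28 of 45 members (62.2%), against 36.4% of all probe sets. Sox9-GFP-high array 1 was the lowest of its sort in 24 members (53.3%), against 34.2%, and the highest in 13 (28.9%), against 36.7%. For the helicase step the median centred value was 0.38 on Sox9-GFP-high array 1, and 0.23 and 0.34 on arrays 2 and 3. The 8 genes in which low array 2 exceeded every Sox9-GFP-high array were *Orc4*, *Gmnn*, *Gins1*, *Gins4*, *Pcna*, *Rpa3*, *Dut* and *Tk1*. The median over members of the log2 value, centred on each gene's mean, was 0.14, 0.32 and 0.30 in Sox9-GFP-high arrays and -0.33, -0.13 and -0.36 in Sox9-GFP-low arrays, so that low array 2 lay nearest to the other sort and the sorts did not overlap.

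Ratios of members within an array set partners of a complex or step beside each other, free of any shift common to the array. The 8 pairs were picked after their values had been seen, and their shifts are given without a test. The log2 ratio of *Cdc6* to *Gmnn* was higher by 0.84 in Sox9-GFP-high arrays, and that of *Cdt1* to *Gmnn*, a licensing factor to its inhibitor, by 0.31 with overlap. *Mcm3* over *Mcm5*, both of the MCM ring, shifted by 0.68. *Gins3* over *Gins4* shifted by 0.95 and *Cdc45* over *Gins1* by 1.08, the latter with Sox9-GFP-high arrays within a narrow band. *Rfc4* over *Pcna*, the loader to its clamp, shifted by 0.87. *Rrm2* over *Rrm1*, the small to the large reductase subunit, shifted by 0.37 and *Pole2* over *Pole* by 0.38, both with overlap. No difference between members was tested, and the shifts are a description of these arrays.

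**Figure D4:**
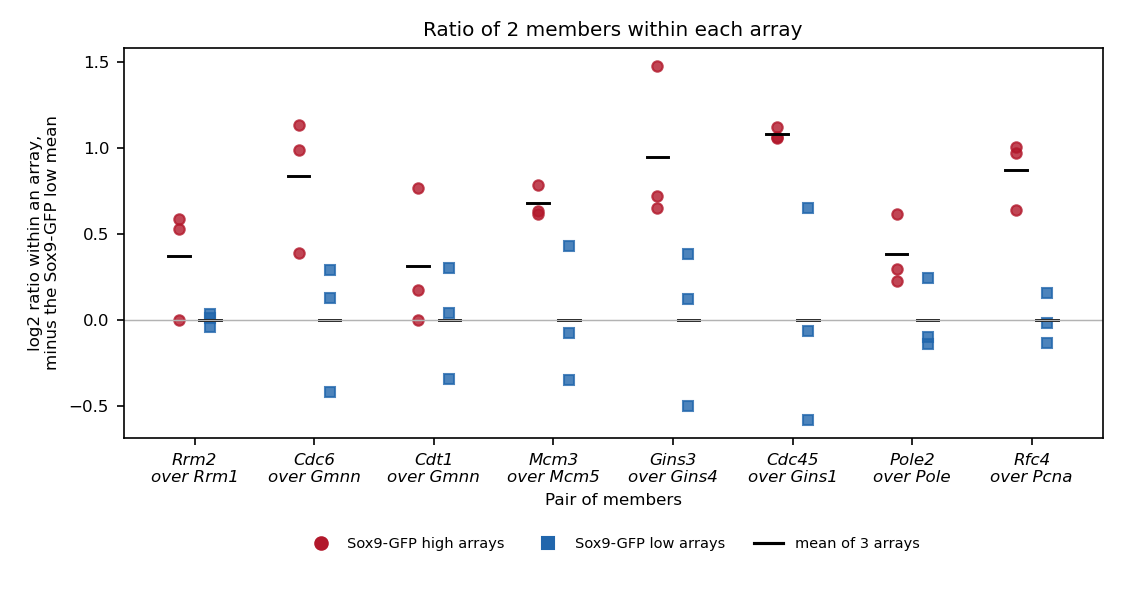
For 8 pairs of members, the log2 ratio within each array is plotted relative to the Sox9-GFP-low mean of that pair, with Sox9-GFP-high arrays as red circles, Sox9-GFP-low arrays as blue squares and bars for the means of 3 arrays. *Cdc45* over *Gins1* has its bar at 1.08 with the red circles close together, and *Rrm2* over *Rrm1* at 0.37 has 1 red circle level with the blue squares.

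Other genes of the pathway, outside the 47, were counted in a list of 52, of which 48 were measured. Of the 48, 8 were higher, 1 was lower and 39 did not pass, beside the 4.0% and 3.20% of all probe sets, with a median difference of 0.39. In 23 (47.9%) the Sox9-GFP-high arrays lay wholly above the others, against 14.1% of all probe sets. With the replicate block 12 were higher and 2 lower, against 6.32% and 4.99% of all probe sets. The block added *Atic* (limma, adjusted p = 0.0201), *Tipin* (0.0320), *Asf1b* (0.0347) and *Dbf4* (0.0475), with differences of 0.86, 0.82, 0.66 and 0.65, and *Dctd* (0.0227), with -0.80. *Atic* was dim, with a mean that differed from the array medians by -0.06. *Pold4*, a small subunit of polymerase δ, differed by -0.49 and was lower at all 3 numbers without passing (limma, adjusted p = 0.246).

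Several of the 8 act at the fork or behind it. *Ticrr* (treslin), which helps load CDC45, was higher by 1.08 (limma adjusted p = 0.00949), and *Timeless*, of the fork protection complex, by 0.99 (0.0268). *Chtf18*, the large subunit of an alternative clamp loader, was higher by 1.37 (limma adjusted p = 0.0271), and *Atad5*, which unloads PCNA, by 0.90 (0.0132). *Chaf1b*, of the chromatin assembly factor that places histones on new DNA, was higher by 1.06 (limma adjusted p = 0.0107). *Timeless* lost the call without Sox9-GFP-high array 1 or 3 or Sox9-GFP-low array 2 or 3 (adjusted p up to 0.0902), *Chtf18* without Sox9-GFP-high array 1 or 2 or Sox9-GFP-low array 2 or 3 (up to 0.0880), and *Atad5* was lost without Sox9-GFP-low array 3 (0.0528).

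The 3 others make nucleotides from scratch. *Umps*, the last enzyme of uridylate synthesis, was higher by 1.00 (limma adjusted p = 0.00711). *Gmps*, which makes guanylate, was higher by 1.07 (limma adjusted p = 0.0103), and *Ctps*, which turns UTP into CTP, by 1.35 (0.0100). *Umps*, *Gmps* and *Ctps* passed whichever single array was left out. The 1 lower gene was *Top1*, the topoisomerase that relaxes DNA ahead of forks and of transcription. Its values were 12.78, 12.16 and 12.62 in Sox9-GFP-high and 13.52, 13.26 and 13.60 in Sox9-GFP-low arrays, wholly below the other sort, and it was lower by 0.94 on the log2 scale (limma adjusted p = 0.0227). The call was lost without Sox9-GFP-high array 2 or 3 or Sox9-GFP-low array 1 or 3 (adjusted p up to 0.0783).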

How the data were processed

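Log2 values per probe set for 6 arrays of sorted luminal cells were used as the authors deposited them. The labels name GeneChip WT PLUS labelling, while array software and normalization are, for this experiment, not stated in any source used here. The platform's gene table named 19572 probe sets, and 2634 are unnamed here. Where several probe sets shared a symbol, the brightest on average stood for the gene. The members and lists were chosen with earlier results of these data known.

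Linear models for all probe sets were run with limma 3.58.1 under R 4.3.3, using lmFit and eBayes without a block, since the study's methods name an unpaired test, and tests were two-sided. P-values were adjusted by Benjamini-Hochberg over all 22206 probe sets with a threshold of 0.05, and folds were taken from differences of mean log2 values. The limma step was run on simulated data with independent noise for each probe set and array. That simulation lacked the pairing by number described below, so it cannot show how the step performs on these arrays. With 3 arrays per sort the smallest p of an exact permutation test is 0.10. The number of arrays limits the precision.

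After the sort means were subtracted, arrays with the same label number correlated at 0.236, 0.232 and 0.218 and the others at -0.0604 to -0.161. Equal numbers were therefore treated as pairs in the replicate block and in comparisons by number. This pairing rests on the data and not on the labels. The main counts and intervals came from the fit without the block. Values with this replicate block are given where they change a call.

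Named with values were members past the threshold, the member with the smallest difference in each step, members not past it with a difference of at least 0.5, and called genes of the second pathway list. *Cdt1*, *Mcm5* and other members given by their difference complete their steps. *Atic*, *Tipin*, *Asf1b*, *Dbf4*, *Dctd* and *Pold4* were named after their values were seen. Promoter letters and motif counts came from RefSeq tables of GRCm38.p6 and Python 3.11.15. No background signal came with the values, which leaves dim probe sets without a detection limit. Alternatives were the block, the methods' t-test, removal of each array or number, a robust and trended prior, quantile normalization, median centring, omission of the dimmest 33% of probe sets, and the mean over probe sets.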

Additional observations from a re-analysis of the deposited data

How the results depend on the processing

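The 14 higher members stayed 14 after median centring, without the dimmest 33% of probe sets, with a trended and robust prior and with the mean over probe sets, and the same 14 genes were called each time. Quantile normalization kept 11 of them. Leaving out an array or a number gave 1 to 9 higher members and 0 lower, with 37 to 41 positive members and a median difference of 0.52 to 0.64, in fits with fewer arrays and no block. Among the other pathway genes such fits gave 1 to 9 higher and 0 to 1 lower, and over all probe sets 231 to 672 higher and 316 to 563 lower. By the methods' t-test 25 members, 18 other pathway genes and 2118 probe sets were higher at an unadjusted 0.05 (1647 probe sets were lower), and after Benjamini-Hochberg adjustment 0, 0 and 1 were higher and 0, 0 and 2 lower.

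The replicate block gave 18 higher members, 12 higher and 2 lower genes of the other pathway list, and 1404 higher and 1108 lower probe sets over all. It added *Orc2* (limma, adjusted p = 0.0196), *Pole2* (0.0267), *Rpa2* (0.0440) and *Tyms* (0.0318) and changed the call of no other member. With an array or number removed, 4 members changed sign, all with small differences. *Gins1* was at -0.026 after quantile normalization and from -0.21 to 0.40 in these refits, *Rpa3* from -0.14 to 0.34, *Dut* from -0.060 to 0.52 and *Mcm8*, from -0.06 with all arrays, from -0.30 to 0.11. The cause of these changes was not tested. Over 44 named genes and 17 settings, 565 values kept their direction and side of the threshold, 18 newly passed, 155 no longer passed and 10 changed sign.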
